A study of Homo sapiens with 12 samples.

Results

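Small nucleolar RNA host genes are transcribed units whose introns carry small nucleolar RNAs (snoRNAs). The genes described here are those whose symbol is SNHG followed by digits only, together with GAS5 and EPB41L4A-AS1, which carry snoRNAs under older names. The rule found 30 such genes among 60612 named rows of the count table, and 20 of the 30 passed the filter on low counts, which 11803 genes passed in all. The rule uses symbols alone, but it was set with earlier results of these data known.

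The data are 3′ RNA-seq read counts from CAMA-1, an ER-positive human line established from breast cancer (ER, oestrogen receptor). Over 5 days the cultures had vehicle (DMSO), 100 nM abemaciclib, which inhibits CDK4/6, 5 nM fulvestrant, which degrades ER, or the combination of these drugs. Doses within the combination are not given by the labels. Each of the 4 groups held 3 libraries, described as independent biological cultures of a single line in an experiment performed once, so the values describe that line alone.

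After splicing, the intron of a host transcript is trimmed to the mature snoRNA. Many snoRNAs, though not all, guide chemical modification of ribosomal RNA. Those of box C/D that act as guides direct ribose methylation, and those of box H/ACA direct pseudouridylation. The related scaRNAs act on spliceosomal RNAs in Cajal bodies. The spliced exons of many hosts have little coding capacity, are loaded onto ribosomes and are removed by nonsense-mediated decay, and many hosts start with a pyrimidine run (5′ TOP) shared with ribosomal protein genes. The library kit reads the polyadenylated spliced host, so the level of a host transcript is not the level of the snoRNAs it carries.

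RefSeq promoter sequences (GRCh38.p14) were found for 26 of the 30 genes. SNHG6, SNHG9, SNHG15 and SNHG25 had none, so whether they hold the motifs below was not examined. The letters CTTTT, searched on the transcript strand from 10 bases before to 10 bases after the annotated start, occurred in 5 of these 26 promoters and in 2.59% of all 27305 promoters. One of the 5 was SNHG32, which did not pass the filter. The other 4 are shown because their levels are compared below. A 5′ TOP run would begin at the start itself, which holds for these letters only in SNHG5 and SNHG19. In SNHG29 they end before the annotated start, and in SNHG16 they begin after it. Each window runs from 60 bases before to 40 bases after the start, 5′ to 3′ on the transcript strand, with CTTTT in capitals and, for SNHG5 and SNHG19, TATAAA or TATATA upstream also in capitals.
SNHG5, chr6:85678694-85678793, minus strand: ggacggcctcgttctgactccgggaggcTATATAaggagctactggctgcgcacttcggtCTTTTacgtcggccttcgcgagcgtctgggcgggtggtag
SNHG19, chr16:2155319-2155418, minus strand: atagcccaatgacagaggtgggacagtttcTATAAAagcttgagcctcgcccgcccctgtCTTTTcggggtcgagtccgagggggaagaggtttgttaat
SNHG29, chr17:16438927-16439026, plus strand: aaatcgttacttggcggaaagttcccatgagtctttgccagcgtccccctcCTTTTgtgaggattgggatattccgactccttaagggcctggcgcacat
SNHG16, chr17:76557704-76557803, plus strand: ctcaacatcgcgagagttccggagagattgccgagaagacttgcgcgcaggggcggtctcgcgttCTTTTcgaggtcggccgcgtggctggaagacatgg

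TATAAA or TATATA, searched 15 to 40 bases before the start on the transcript strand, occurred in SNHG5, SNHG7, SNHG12 and SNHG19, 4 of the 26, and in 3.4% of all promoters. The letters TTTCCCGC, TTTGGCGC or TTTCGCGC, which resemble sites of the E2F cell cycle factors, were searched on both strands of the 300-base promoter and occurred in SNHG1, SNHG17 and SNHG18, against 2.79% of all promoters. The first 2 are shown with that match in capitals, the SNHG1 window from 190 bases before the start. The SNHG17 match is read on the opposite strand.
SNHG1, chr11:62855846-62856075, minus strand: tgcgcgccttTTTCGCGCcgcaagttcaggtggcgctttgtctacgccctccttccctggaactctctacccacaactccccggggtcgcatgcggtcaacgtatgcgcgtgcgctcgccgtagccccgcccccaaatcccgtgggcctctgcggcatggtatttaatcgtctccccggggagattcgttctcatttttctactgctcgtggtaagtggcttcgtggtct
SNHG17, chr20:38435289-38435388, minus strand: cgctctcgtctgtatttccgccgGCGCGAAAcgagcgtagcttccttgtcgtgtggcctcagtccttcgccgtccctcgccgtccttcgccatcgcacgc

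The starts of GAS5 and EPB41L4A-AS1 are shown because these were the members that were higher with abemaciclib. No motif matched at the positions searched. The GAS5 window follows the RefSeq start and lies wholly before the gene span given for GAS5 below. The start of that span was not searched, so the absence of a match does not describe it.
GAS5, chr1:173869006-173869105, minus strand: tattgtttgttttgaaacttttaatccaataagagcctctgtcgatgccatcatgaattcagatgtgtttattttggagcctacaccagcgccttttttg
EPB41L4A-AS1, chr5:112160466-112160565, plus strand: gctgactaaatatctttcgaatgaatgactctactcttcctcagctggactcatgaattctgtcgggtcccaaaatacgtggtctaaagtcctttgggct

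CACGTG was present in SNHG7 and SNHG30 and in 7.43% of all promoters. The palindromic consensus oestrogen response element, searched on both strands, was present only in SNHG27 among the 26, and in 0.0659% of all promoters. SNHG27 had 0 reads in the 12 libraries. A match of letters is a description of the sequence, and no binding was measured here.

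Total counts ranged from 3299119 to 5164667 per library, so that 1 count was worth between 0.19 and 0.297 CPM, the unit of reads scaled to a common library size. Luminal markers including ESR1, KRT8 and GATA3 were all tested, and their summed level ranged from 4200 to 4610 CPM with DMSO, 4240 to 4360 with abemaciclib, 5070 to 5880 with fulvestrant and 4690 to 5470 with the combination. GATA3, at 3020 CPM with DMSO, made up most of that sum, which hides opposite changes. By the test used below, abemaciclib raised 2 of the 7 luminal markers and lowered 1. Fulvestrant raised 4 and lowered 0, and the combination raised 2 and lowered 2. Of 9 markers of other cell types only COL1A1 passed the filter. The summed level of those 9 markers ranged from 14.8 to 19.2 CPM with DMSO, 22.2 to 27.5 with abemaciclib, 22.1 to 28.8 with fulvestrant and 18.8 to 23.6 with the combination, with COL1A2, CD68 and PECAM1 listed at 0 throughout. The part of either shift in the results was not tested. Replicate 3 of the fulvestrant group differed most from its own replicates. With 3 libraries a group the smallest two-sided exact permutation p is 0.1, so tests rest on a model fitted across all genes.

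Host transcripts were a smaller share of the libraries under every treatment. Their summed level was 1750 ± 66.1 CPM with DMSO (SD, n = 3), 1353 ± 23.7 with abemaciclib, 939.8 ± 39.1 with fulvestrant and 968.2 ± 61.8 with the combination. No treated library reached the lowest DMSO library, which held 1695 CPM, and the fulvestrant and combination libraries lay below every abemaciclib library. CPM is a share of all reads, so fewer transcripts per cell and a change in the total RNA per cell cannot be told apart in these bulk libraries.

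A few hosts carried most of these reads. CPM from 3′ reads was not divided by length, because each transcript is read near its end. With DMSO the order began with SNHG6 (20.2% of the summed host CPM), SNHG29 (16%), SNHG25 (11.5%) and SNHG7 (11.2%). With fulvestrant SNHG7 came first at 19.7 ± 2.78% (SD, n = 3) and with the combination at 21.3 ± 0.397%, while SNHG6 made up 15.2% and 14%. SNHG25 was no longer among the 6 most abundant hosts in any treated group.

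Among the 20 hosts tested, abemaciclib lowered 10 and raised 2, where 20.7% and 20.5% of all genes tested were lower and higher (edgeR quasi-likelihood test, adjusted p under 0.05). Fulvestrant lowered 16 and raised 1, where 25.7% of all genes were lower and 25.3% higher. The combination lowered 15 and raised 1 against DMSO, with 27.5% of all genes lower and 27.7% higher. The median log2 fold change of the 20 hosts was −0.38, −1.13 and −0.95 in that order, against 0, 0.01 and 0.01 over all genes tested. The 3 comparisons share the DMSO libraries. All libraries of a treated group lay apart from all DMSO libraries for 12 of the 20 hosts with abemaciclib, 18 with fulvestrant and 19 with the combination. The same held for 54.2%, 54.7% and 62.1% of all genes tested, so libraries that do not overlap are common in these data.

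**Figure D1:**
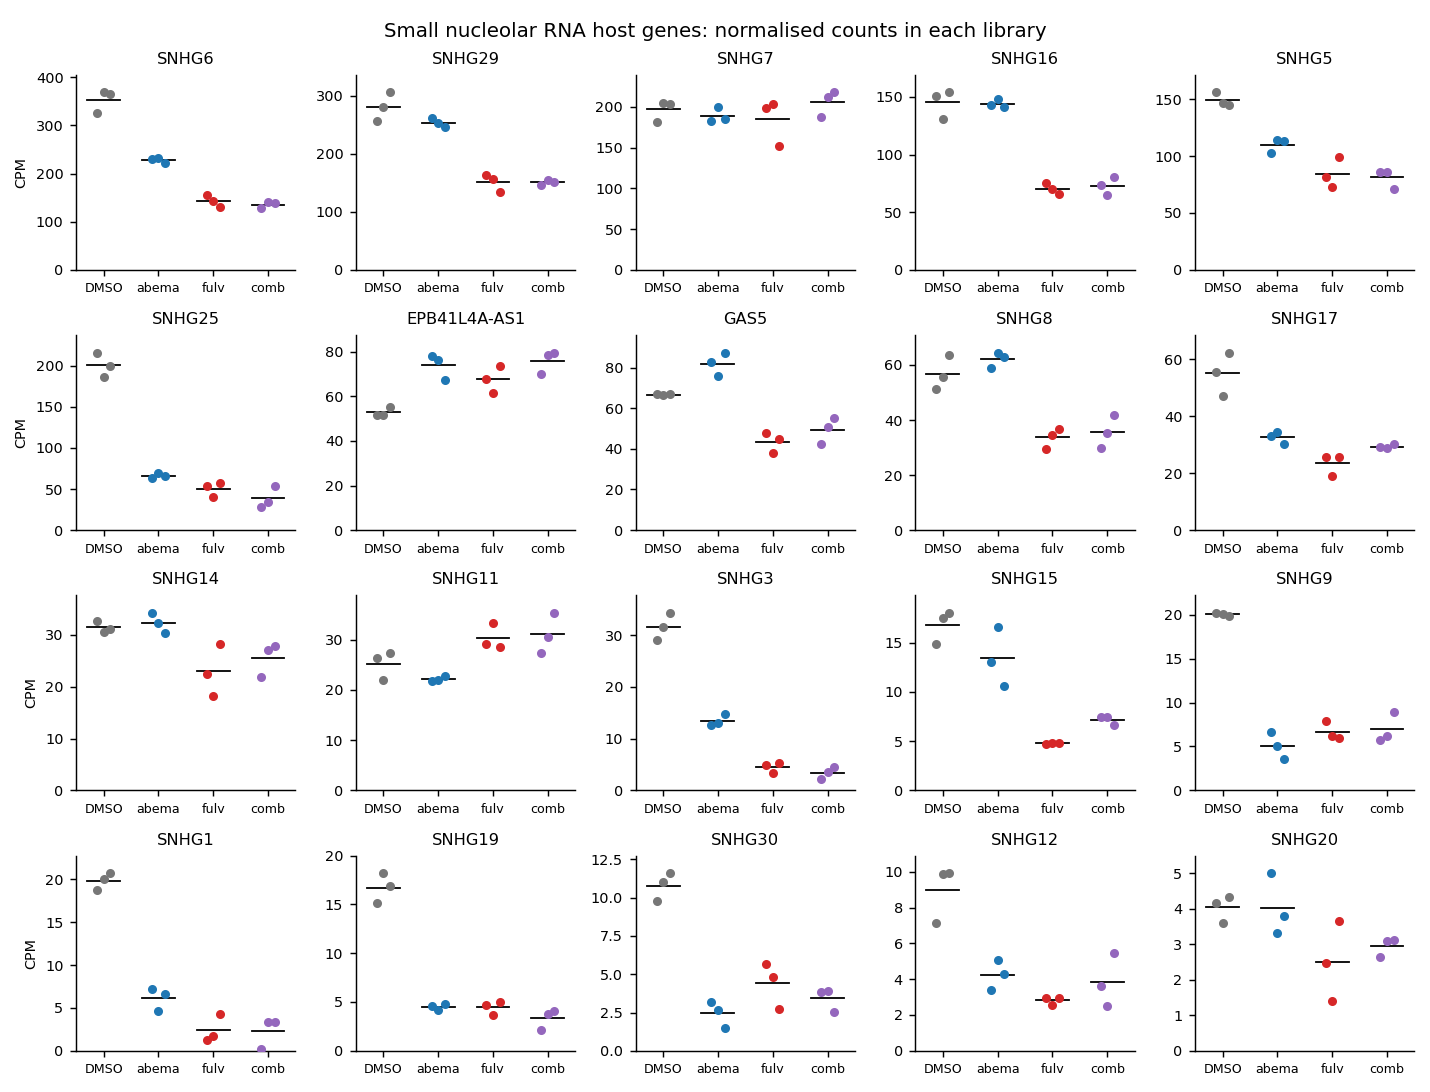
Normalised counts (CPM, linear axis from 0, own scale in each panel) of the 20 tested host genes in each of the 12 libraries; points are libraries and lines are group means for DMSO, abemaciclib (abema), fulvestrant (fulv) and the combination (comb). SNHG1 fell from between 18.7 and 20.7 CPM with DMSO to between 0.241 and 4.33 in the libraries that had fulvestrant, whereas SNHG7 overlapped between all groups.

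**Figure D2:**
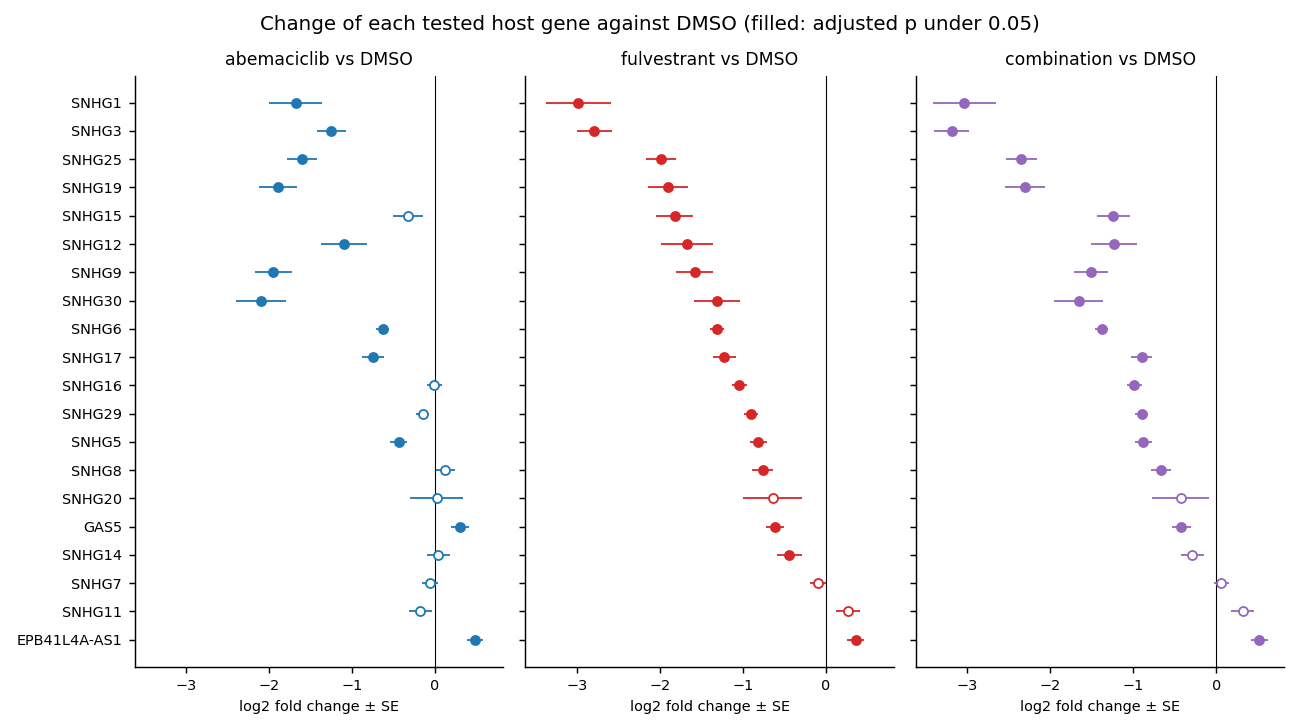
Log2 fold change against DMSO of each tested host gene, with its standard error, for abemaciclib, fulvestrant and the combination; filled points passed an adjusted p of 0.05. Genes are ordered by the change with fulvestrant, from −2.98 for SNHG1 to 0.36 for EPB41L4A-AS1.

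Hosts of box C/D snoRNAs alone were SNHG1, SNHG5, SNHG6, SNHG14, SNHG16, SNHG19, SNHG29 and SNHG30. All 8 fell with fulvestrant, with a median log2 fold change of −1.18, and 5 of the 8 fell with abemaciclib, with a median of −0.54. Of all genes tested, 25.7% were lower with fulvestrant and 20.7% with abemaciclib.

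SNHG1 (chr11:62851978-62855953, minus strand), whose introns carry 8 box C/D snoRNAs, had the steepest fall with fulvestrant. It measured 18.7, 20 and 20.7 CPM with DMSO, 7.2, 4.64 and 6.57 with abemaciclib, 1.24, 1.69 and 4.33 with fulvestrant, and 0.241, 3.31 and 3.3 with the combination. Every treated library lay below every DMSO library. The log2 fold change was −1.68 ± 0.32 (SE) with abemaciclib (adjusted p = 0.000388), −2.98 ± 0.39 with fulvestrant (3.42e-06) and −3.04 ± 0.38 with the combination (1.55e-06). The fulvestrant and combination levels rest on few reads, 30 and 34 in all per group, and the first combination library held 1. Without fulvestrant replicate 3, which held 19 of the 30 reads, the change with fulvestrant was −3.75 (adjusted p = 1.7e-09).

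SNHG30 (chr17:35568050-35574900, plus strand), which carries SNORD7, had the largest fall with abemaciclib. Its levels were 9.79, 11 and 11.6 CPM with DMSO, 3.2, 2.65 and 1.52 with abemaciclib, 5.68, 4.8 and 2.73 with fulvestrant, and 3.85, 3.93 and 2.52 with the combination. Against DMSO it changed by −2.10 ± 0.30 on the log2 scale (adjusted p = 2.94e-06), −1.31 ± 0.28 (0.000332) and −1.66 ± 0.29 (1.72e-05). All DMSO libraries were above all treated libraries, and the treated groups overlapped each other. The abemaciclib level rests on few reads, 34 in all against 147 with DMSO, and abemaciclib replicate 3 held 6.

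SNHG19 (chr16:2154792-2155405, minus strand), a short host of SNORD60 with the letters TATAAA and CTTTT in its window above, fell under each treatment. It stood at 15.1, 18.2 and 16.9 CPM with DMSO, 4.6, 4.19 and 4.8 with abemaciclib, 4.69, 3.67 and 5.01 with fulvestrant, and 2.17, 3.72 and 4.08 with the combination. These were log2 fold changes of −1.89 ± 0.23, −1.90 ± 0.24 and −2.31 ± 0.24, with adjusted p of 1.77e-07, 1.27e-07 and 4.31e-09.

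SNHG6, the most abundant host with DMSO and the carrier of SNORD87, fell in steps. It measured 326, 369 and 366 CPM with DMSO, 230, 232 and 223 with abemaciclib, 155, 143 and 130 with fulvestrant, and 128, 141 and 138 with the combination. The abemaciclib libraries lay below DMSO and above both groups with fulvestrant, which overlapped. On the log2 scale the changes were −0.63 ± 0.08 (adjusted p = 3.26e-07), −1.31 ± 0.08 (2.25e-13) and −1.38 ± 0.08 (4.7e-14).

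SNHG5 (chr6:85650491-85678932, minus strand), which carries SNORD50A and SNORD50B, has the letters TATATA and CTTTT in its window above. Its levels were 156, 147 and 145 CPM with DMSO, 103, 114 and 113 with abemaciclib, 81.3, 73.1 and 98.9 with fulvestrant, and 86.1, 86 and 71.3 with the combination. The log2 fold changes of −0.44 ± 0.10, −0.81 ± 0.10 and −0.88 ± 0.10 passed the test (adjusted p = 0.000773, 1.37e-07 and 2.7e-08).

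SNHG16 and SNHG29 are the other tested members with CTTTT within the positions searched, though not at the start itself. Both were lower where fulvestrant was present and did not pass the test with abemaciclib alone. SNHG16 (chr17:76557727-76670985, plus strand), which carries SNORD1A, SNORD1B and SNORD1C, measured 151, 131 and 154 CPM with DMSO, 143, 148 and 141 with abemaciclib, 74.9, 70.5 and 66.1 with fulvestrant, and 73.4, 65.1 and 80.2 with the combination. SNHG29 (chr17:16438767-16480249, plus strand), host of SNORD49A, SNORD49B and SNORD65, measured 256, 281 and 306 CPM with DMSO, 261, 253 and 247 with abemaciclib, 163, 156 and 134 with fulvestrant, and 147, 154 and 151 with the combination. For both genes the abemaciclib libraries overlapped DMSO and the other treated libraries lay below. The change with fulvestrant was −1.04 ± 0.09 on the log2 scale for SNHG16 (adjusted p = 3.6e-10) and −0.90 ± 0.08 for SNHG29 (8.79e-10). With abemaciclib the values were −0.01 ± 0.09 (adjusted p = 0.946) and −0.15 ± 0.08 (0.15).

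SNHG14 (chr15:24978583-25420336, plus strand) is a long imprinted host with 83 box C/D snoRNA genes in its body. It measured 32.6, 30.6 and 31.2 CPM with DMSO, 34.2, 32.2 and 30.3 with abemaciclib, 22.5, 18.1 and 28.3 with fulvestrant, and 21.9, 27.1 and 27.8 with the combination. The fall with fulvestrant, −0.44 ± 0.15 on the log2 scale (adjusted p = 0.015), was the smallest among the hosts lowered. It did not pass without fulvestrant replicate 1 (−0.41, adjusted p = 0.0517) or replicate 2 (−0.30, 0.103). Its exons share 141 bases with SNRPN on the same strand and 1822 with UBE3A on the opposite strand. SNRPN was higher with fulvestrant (log2 fold change 0.48, adjusted p = 2.13e-05).

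Hosts of box H/ACA snoRNAs alone were EPB41L4A-AS1, SNHG3, SNHG7, SNHG8, SNHG9, SNHG11, SNHG15 and SNHG17. With fulvestrant 5 of these 8 fell and 1 rose, and with abemaciclib 3 fell and 1 rose, with medians of −0.99 and −0.25. Of all genes tested, fulvestrant lowered 25.7% and raised 25.3%, and abemaciclib lowered 20.7% and raised 20.5%.

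SNHG3 (chr1:28505980-28510892, plus strand), host of SNORA73A and SNORA73B, was lowest in the libraries with fulvestrant. It stood at 29.1, 31.5 and 34.3 CPM with DMSO, 12.6, 13 and 14.7 with abemaciclib, 4.94, 3.38 and 5.24 with fulvestrant, and 2.17, 3.52 and 4.47 with the combination. The groups DMSO, abemaciclib and fulvestrant did not overlap, and the combination overlapped fulvestrant. The log2 fold changes against DMSO were −1.25 ± 0.17 (adjusted p = 1.14e-06), −2.79 ± 0.21 (7.08e-12) and −3.19 ± 0.21 (4.75e-13). SNHG3 shares 242 exonic bases on the same strand with RCC1, whose log2 fold changes were −0.26 (adjusted p = 0.297), −0.66 (0.0115) and −0.94 (0.000916).

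SNHG9 (chr16:1964895-1965509, plus strand), host of SNORA78, was tight with DMSO at 20.2, 20.1 and 19.8 CPM. It measured 6.6, 5.08 and 3.54 CPM with abemaciclib, 7.91, 6.21 and 5.93 with fulvestrant, and 5.77, 6.2 and 8.93 with the combination. The treated groups overlapped each other, all below DMSO. Its log2 fold changes were −1.95 ± 0.22, −1.58 ± 0.22 and −1.51 ± 0.21, with adjusted p of 6.59e-08, 8.17e-07 and 8.21e-07.

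SNHG15 (chr7:44983019-44986961, minus strand), host of SNORA9, passed the test against DMSO only in the groups with fulvestrant. Its levels were 14.8, 17.5 and 18 CPM with DMSO, 13, 16.6 and 10.6 with abemaciclib, 4.69, 4.8 and 4.79 with fulvestrant, and 7.46, 7.44 and 6.6 with the combination. The log2 fold change was −1.82 ± 0.22 with fulvestrant (adjusted p = 8.6e-08) and −1.24 ± 0.20 with the combination (6.88e-06). With abemaciclib it was −0.33 ± 0.18 (adjusted p = 0.154).

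SNHG17 and SNHG11 lie 10933 bases apart on opposite strands of chromosome 20 and carry related snoRNAs of the SNORA71 family. SNHG17 (chr20:38419638-38435409, minus strand) measured 55.5, 47.3 and 62.4 CPM with DMSO, 33.2, 34.4 and 30.1 with abemaciclib, 25.7, 18.9 and 25.8 with fulvestrant, and 29.1, 28.7 and 30.3 with the combination. SNHG11 (chr20:38446343-38450940, plus strand) measured 26.4, 21.9 and 27.3 CPM with DMSO, 21.8, 21.9 and 22.7 with abemaciclib, 29.2, 33.3 and 28.5 with fulvestrant, and 27.4, 30.6 and 35.3 with the combination. SNHG17 was below DMSO in every treated library, whereas SNHG11 was above DMSO in every library with fulvestrant. The changes of SNHG17 passed the test, at −0.75 ± 0.13, −1.22 ± 0.14 and −0.90 ± 0.13 on the log2 scale (adjusted p = 2.97e-05, 1.88e-08 and 1.15e-06). Those of SNHG11 did not, at −0.18 ± 0.14, 0.27 ± 0.14 and 0.32 ± 0.14 (adjusted p = 0.328, 0.11 and 0.0503). The last passed without DMSO replicate 3 (0.39, adjusted p = 0.04), fulvestrant replicate 2 (0.32, 0.0446), fulvestrant replicate 3 (0.32, 0.0405) or combination replicate 1 (0.40, 0.0244), and with upper-quartile factors (0.35, 0.0348).

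SNHG8 (chr4:118278703-118285316, plus strand), host of SNORA24, measured 51.3, 55.5 and 63.7 CPM with DMSO, 59, 64.5 and 62.9 with abemaciclib, 29.6, 34.7 and 36.7 with fulvestrant, and 29.8, 35.2 and 41.9 with the combination. Only the groups with fulvestrant lay apart from DMSO. The log2 fold change was 0.12 ± 0.12 with abemaciclib (adjusted p = 0.434), −0.76 ± 0.13 with fulvestrant (1.49e-05) and −0.67 ± 0.12 with the combination (4.72e-05). PRSS12, which shares 2487 exonic bases with SNHG8 on the opposite strand, had 1 read in the 12 libraries.

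SNHG7 (chr9:136721366-136728184, minus strand), host of SNORA17A and SNORA17B, did not pass the test in any comparison. Its levels were 182, 205 and 204 CPM with DMSO, 183, 200 and 185 with abemaciclib, 199, 204 and 152 with fulvestrant, and 188, 212 and 218 with the combination. All groups overlapped. The log2 fold changes against DMSO were −0.06 ± 0.10, −0.09 ± 0.10 and 0.06 ± 0.09 (adjusted p = 0.651, 0.441 and 0.594). SNHG7 shares 1482 exonic bases with DIPK1B on the opposite strand, which was far less abundant at 5.57 CPM with DMSO and rose with each treatment, by 0.96, 1.09 and 1.36 on the log2 scale.

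EPB41L4A-AS1 (chr5:112160526-112164818, plus strand), host of SNORA13, was the host that rose with every treatment. It measured 51.6, 51.7 and 55.2 CPM with DMSO, 78, 76.4 and 67.2 with abemaciclib, 67.7, 61.5 and 73.6 with fulvestrant, and 69.8, 78.6 and 79.6 with the combination. No treated library overlapped DMSO. The log2 fold changes were 0.48 ± 0.10 (adjusted p = 0.000358), 0.36 ± 0.10 (0.00499) and 0.52 ± 0.10 (7.54e-05). Its exons share 2200 bases with EPB41L4A on the opposite strand, and EPB41L4A rose from 6.11 ± 1.2 CPM (SD, n = 3) with DMSO to 18.7 ± 3.34 with fulvestrant and 17.3 ± 1.12 with the combination (adjusted p = 4.67e-07 and 1.04e-06). Whether counting used the strand is not given in the sources used here, so reads of such partners cannot be told apart, and the part of the overlap in this result was not tested.

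Hosts of both classes were GAS5, SNHG12 and SNHG25. All 3 fell with fulvestrant and with the combination, but with abemaciclib GAS5 was higher and SNHG12 and SNHG25 were lower. Of all genes tested, 25.7% were lower with fulvestrant and 27.5% with the combination. With abemaciclib 20.7% were lower and 20.5% higher.

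GAS5 (chr1:173858559-173868882, minus strand), growth arrest specific 5, carries 10 box C/D snoRNAs and 1 box H/ACA snoRNA and is known as a transcript that accumulates in growth-arrested cells. It stood at 66.8, 66.3 and 66.8 CPM with DMSO, 82.8, 75.9 and 87.4 with abemaciclib, 47.9, 37.8 and 44.9 with fulvestrant, and 42.6, 50.9 and 55.1 with the combination. The abemaciclib libraries lay above DMSO and all libraries with fulvestrant below it. The log2 fold change was 0.30 ± 0.11 with abemaciclib (adjusted p = 0.0247), −0.61 ± 0.11 with fulvestrant (5.47e-05) and −0.42 ± 0.11 with the combination (0.00184). The rise was lost with DESeq2 (0.29, adjusted p = 0.0569) and without DMSO replicate 2 (0.30, 0.0704), DMSO replicate 3 (0.31, 0.0524), abemaciclib replicate 1 (0.29, 0.0662) or abemaciclib replicate 3 (0.26, 0.103).

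SNHG25 (chr17:64145937-64146476, plus strand), a short host of SNORD104 and SNORA50C, was the third most abundant host with DMSO and fell with every treatment. It measured 216, 186 and 200 CPM with DMSO, 63.4, 68.9 and 65.7 with abemaciclib, 53.4, 40.3 and 57.9 with fulvestrant, and 28.1, 34.7 and 53.8 with the combination. No treated library reached the lowest DMSO library. It changed by −1.60 ± 0.18 (adjusted p = 1.52e-05), −1.98 ± 0.18 (1.77e-06) and −2.35 ± 0.19 (3.35e-07) on the log2 scale.

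SNHG12 (chr1:28578538-28583132, minus strand) lies 67645 bases from SNHG3 and carries SNORA16A, SNORA44, SNORA61 and SNORD99. Its levels were 7.12, 9.88 and 9.92 CPM with DMSO, 3.4, 5.08 and 4.3 with abemaciclib, 2.96, 2.54 and 2.96 with fulvestrant, and 3.61, 2.48 and 5.44 with the combination. The treated libraries were all below DMSO. The log2 fold changes were −1.10 ± 0.28, −1.67 ± 0.31 and −1.23 ± 0.28 (adjusted p = 0.00262, 5.34e-05 and 0.000602).

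SNHG20 (chr17:77086716-77099902, plus strand), which carries the scaRNA SCARNA16, was the least abundant host tested, at 4.04 ± 0.379 CPM with DMSO (SD, n = 3) and 2.51 ± 1.12 with fulvestrant. Its log2 fold change with fulvestrant was −0.64 ± 0.36 (adjusted p = 0.139) and did not pass. Without fulvestrant replicate 3, the library that stood apart, it was −1.02 (adjusted p = 0.0498). SEC14L1, on the same strand with 460 shared exonic bases, rose with fulvestrant by 1.04 on the log2 scale.

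The 10 hosts that did not pass the filter had few reads. Over the 12 libraries SNHG10 had 54 reads, SNHG4 had 53, SNHG26 had 30, SNHG31 had 25, SNHG32 had 11, SNHG22 had 8 and SNHG18 had 7, and SNHG21, SNHG27 and SNHG28 had 0. SNHG10, a scaRNA host, held 37 of its 54 reads in the DMSO libraries, against 3 with abemaciclib, 2 with fulvestrant and 12 with the combination. No test was made of these genes. Several share exonic bases with a neighbour, for example SNHG4 with MATR3 (626 bases, same strand) and SNHG10 with GLRX5 (301 bases, opposite strand), and how counting treated such reads is not given in the sources used here.

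The next comparisons set the combination against each drug alone, in separate cultures, and describe the difference as the drug added. Doses within the combination are not given, so doses equal to those of the single drugs are assumed, here and for the interaction. Adding fulvestrant to abemaciclib lowered 10 of the 20 hosts and raised 1, where 17.7% of all genes tested were lower and 15.9% higher, with a median log2 fold change of −0.44 against 0.01 over all genes. SNHG3 fell further, by 1.95 ± 0.23 on the log2 scale (adjusted p = 1.93e-07), followed by SNHG1 at −1.36 ± 0.44 (0.0243). SNHG16 (−0.98 ± 0.09), SNHG15 (−0.91 ± 0.20), SNHG8 (−0.79 ± 0.12) and GAS5 (−0.72 ± 0.11), none of which was called lower with abemaciclib alone, were among those lowered. SNHG11 was the host that rose, by 0.50 ± 0.14 (adjusted p = 0.00619). SNHG1 did not pass without abemaciclib replicate 1 (−1.21, adjusted p = 0.099), abemaciclib replicate 3 (−1.31, 0.0749) or combination replicate 1 (−0.89, 0.0594), and SNHG11 did not pass without combination replicate 3 (0.39, 0.0556). SNHG14, at −0.33 ± 0.14 (adjusted p = 0.0763), passed without fulvestrant replicate 3 (−0.33, 0.0433) and with only the groups compared fitted (−0.34, 0.0372).

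Adding abemaciclib to fulvestrant called 0 of the 20 hosts in either direction, where 0.297% of all genes tested were higher and 1.63% lower. The edgeR test gave 2 hosts higher at an unadjusted p under 0.05, SNHG15 at 0.58 ± 0.25 and SNHG17 at 0.32 ± 0.14 on the log2 scale (adjusted p = 0.339 and 0.377), and 0 lower. DESeq2 called 0 and gave 0 higher and 1 lower at an unadjusted p under 0.05. The log2 fold changes ran from −0.41 ± 0.30 for SNHG19 to 0.58 for SNHG15, and the standard errors, up to 0.54 for SNHG1, do not show that the scarce hosts were equal. Without combination replicate 3, SNHG25 passed the test at −0.69 (adjusted p = 0.00737), against −0.37 ± 0.20 (0.531) with all libraries.

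The interaction asked whether fulvestrant altered the response of each host to abemaciclib, as the log2 change in its presence minus the log2 change in its absence. It was positive and past the threshold for 8 of the 20 hosts and negative for 0, where 9.49% of all genes tested were positive and 11.6% negative. DESeq2 also gave 0 negative, and at an unadjusted p under 0.05 edgeR gave 1, EPB41L4A-AS1, and DESeq2 0. The median over the 20 hosts was 0.47, against −0.01 over all genes.

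SNHG9 had the largest interaction, 2.03 ± 0.34 (adjusted p = 7.59e-05): abemaciclib changed it by −1.95 on the log2 scale without fulvestrant and by 0.07 with it. For SNHG30 the interaction was 1.75 ± 0.46 (adjusted p = 0.00732) and for SNHG19 it was 1.48 ± 0.38 (0.00619). SNHG25, SNHG17 and SNHG6 gave 1.23 ± 0.27, 1.07 ± 0.19 and 0.56 ± 0.12 (adjusted p = 0.00663, 0.000185 and 0.000822). These 6 hosts were each lower with abemaciclib alone and were not called when it was added to fulvestrant. In that last comparison the standard errors were 0.25 for SNHG9, 0.30 for SNHG19 and 0.33 for SNHG30, so a further fall is not excluded. SNHG30 and SNHG19 rest on few reads, 48 each with the combination, and neither held at least 10 counts in every library.

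The interactions of SNHG12 and SNHG15 were less firm. SNHG12 gave 1.55 ± 0.45 (adjusted p = 0.0143) and did not pass without combination replicate 3 (1.17, 0.0878). SNHG15, at 0.91 ± 0.31 (adjusted p = 0.0344), did not pass with DESeq2 (0.91, 0.0924), with no filter on low counts (0.90, 0.0709), or without any one of DMSO replicates 2 and 3 (0.88 and 0.85), abemaciclib replicates 1 and 3 (0.89 and 0.78), fulvestrant replicates 1 and 2 (0.89 and 0.92) or combination replicates 1 and 2 (0.88 and 0.87), with adjusted p from 0.0566 to 0.082.

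SNHG1, SNHG3 and SNHG5 had interactions of 1.62 ± 0.64, 0.84 ± 0.34 and 0.38 ± 0.14 that did not pass (adjusted p = 0.0786, 0.0781 and 0.062). SNHG1 passed with no filter (1.61, adjusted p = 0.00812), without fulvestrant replicate 3 (2.39, 0.00354) and without combination replicate 1 (2.08, 0.00378). SNHG3 passed without combination replicate 1 (1.05, 0.0332), and SNHG5 without fulvestrant replicate 3 (0.51, 0.00328) or combination replicate 3 (0.45, 0.0332).

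**Figure D3:**
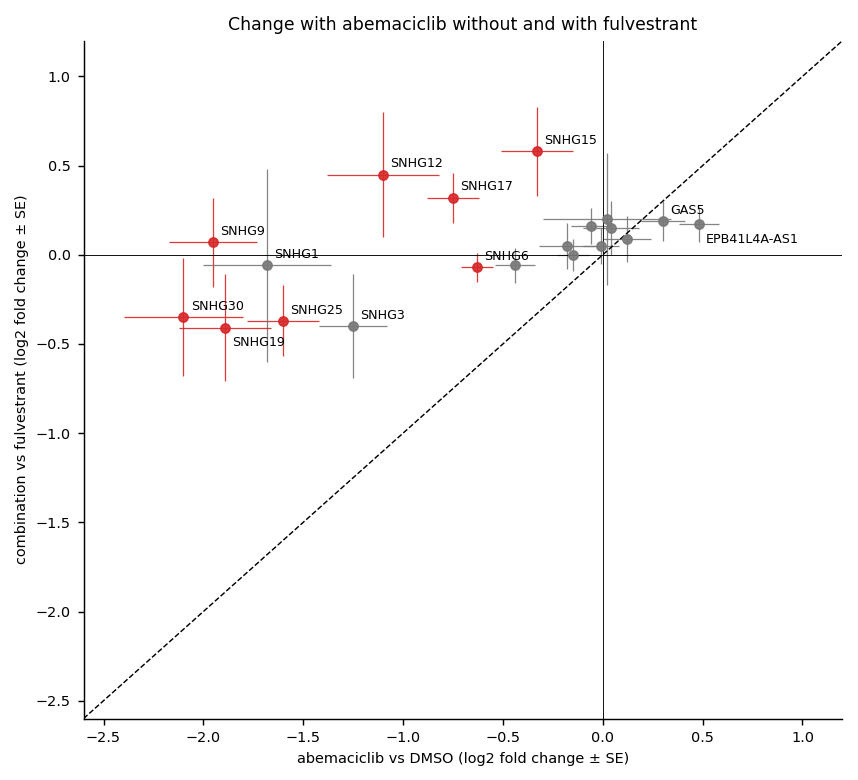
Log2 fold change with abemaciclib in the absence of fulvestrant (horizontal axis) against that in its presence (vertical axis) for the 20 tested host genes, with standard errors; red points passed the test of the interaction and the dashed line marks equal change. The red points lie above the line, from SNHG6 (−0.63 and −0.07) to SNHG9 (−1.95 and 0.07).

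Other genes of the snoRNA pathway were compared by counts. Beside them, abemaciclib lowered 20.7% and raised 20.5% of all genes tested, and fulvestrant lowered 25.7% and raised 25.3%. Of 22 proteins that form or assemble snoRNA particles 21 were tested, of which abemaciclib lowered 15 and fulvestrant 18, and neither raised any, with median log2 fold changes of −0.53 and −0.60. NOP56, a core box C/D protein whose gene also hosts snoRNAs, changed by −1.30 ± 0.12 and −2.01 ± 0.12 on the log2 scale (adjusted p = 3.36e-08 and 5.13e-11). NAF1, an assembly factor for box H/ACA particles, changed by −0.59 ± 0.22 and −1.47 ± 0.25. Of these 21 genes 12 had a positive interaction past the threshold and 0 a negative one, beside 9.49% and 11.6% of all genes tested.

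Hosts outside the SNHG symbols were compared in the same way, beside the same shares of all genes: 20.7% lower and 20.5% higher with abemaciclib, 25.7% and 25.3% with fulvestrant. From a short list of 3 non-coding hosts without an SNHG symbol, 2 passed the filter, ZFAS1 and DANCR. Both were lower with abemaciclib, at −0.68 ± 0.09 and −0.83 ± 0.12 on the log2 scale. With fulvestrant they were lower at −1.25 ± 0.09 and −0.77 ± 0.12. Of 49 protein-coding hosts tested from a list of 50, 22 fell and 5 rose with abemaciclib (median −0.18) and 41 fell and 2 rose with fulvestrant (median −0.75). In that list NOP56 and PPAN, a ribosome biogenesis factor (−1.37 ± 0.19 with fulvestrant), had the lowest called values over both drugs. The translation factor EIF4A2 (0.73 ± 0.11 with fulvestrant) and TPT1 (0.39 ± 0.08 with abemaciclib) had the highest. The list holds many ribosomal protein genes.

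Of 82 cytosolic ribosomal protein genes tested, abemaciclib lowered 47 and raised 5 (median −0.25) and fulvestrant lowered 77 and raised 1 (median −0.76). Among 178 annotated protein-coding hosts that are not ribosomal protein genes, 49 fell and 27 rose with abemaciclib and 70 fell and 33 rose with fulvestrant, with medians of −0.09 and −0.21. Of all 209 annotated hosts other than the members, 66 fell, 29 rose and 114 were not called with abemaciclib (median −0.12), and 98 fell, 34 rose and 77 were not called with fulvestrant (median −0.32). Over all genes tested the shares were 20.7% lower and 20.5% higher with abemaciclib, and 25.7% lower and 25.3% higher with fulvestrant. The difference between these lists and the SNHG genes was not tested.

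Factors of nonsense-mediated decay, the pathway that removes many host transcripts, moved both ways. Of 23 tested, 9 fell and 2 rose with abemaciclib, and 11 fell and 6 rose with fulvestrant, beside 20.7% lower and 20.5% higher, and 25.7% lower and 25.3% higher, of all genes tested. UPF3B, which links the decay factors to the exon junction complex, changed by −0.78 ± 0.11 and −1.43 ± 0.12 on the log2 scale, and the helicase DHX34 by −0.55 ± 0.22 and −1.27 ± 0.24. PNRC2, a decapping partner of UPF1, rose by 0.90 ± 0.12 and 0.92 ± 0.12, and NBAS rose by 0.49 ± 0.16 and 0.82 ± 0.16. Decay was not measured.

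**Figure D4:**
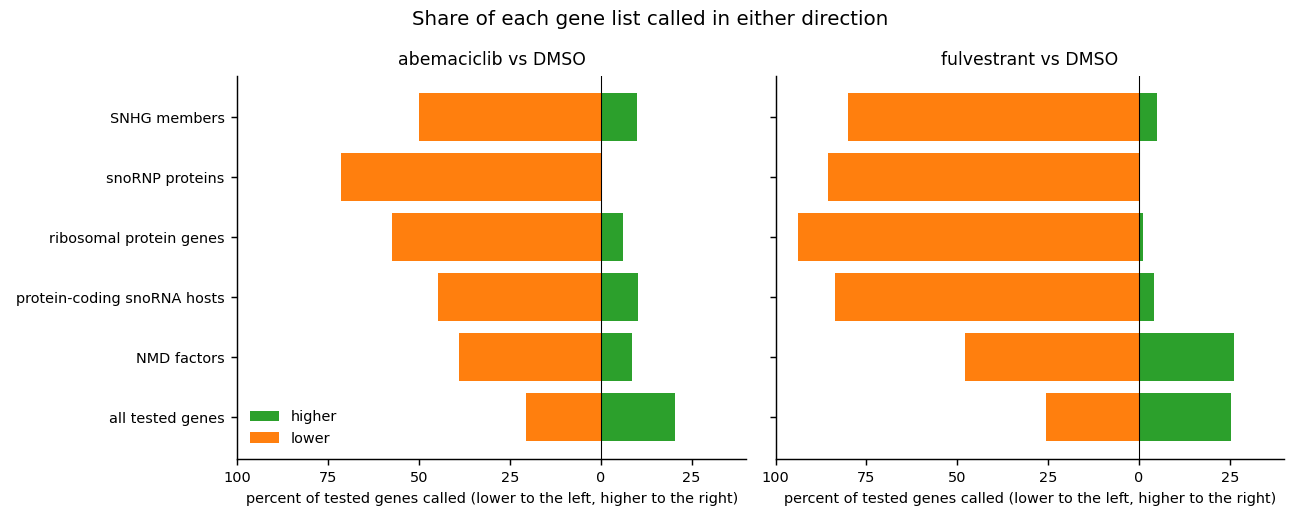
Share of the tested genes of each list that passed the test with abemaciclib (left) and fulvestrant (right) against DMSO, in percent, with lower genes to the left of 0 and higher genes to the right. The SNHG genes are at 50 and 10 with abemaciclib and 80 and 5 with fulvestrant, against 20.7 and 20.5, and 25.7 and 25.3, of all genes tested.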

How the data were processed

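Transcripts of CAMA-1 cells were measured in 12 libraries, 3 for each of DMSO, abemaciclib, fulvestrant and the combination, grouped by the treatment label. The authors deposited raw counts, 1 row a gene symbol. By the study's methods and the submitters' processing notes, reads from a single-end 3′ mRNA kit were trimmed with BBDuk, aligned to hg38 with STAR and counted with featureCounts 2.0.1 on GENCODE 35. A strand setting and molecular identifiers are not given in the sources used here, so read counts are not independent molecules.

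The 44 rows with no gene name held 0 reads and were left out. The test was edgeR 4.0.16, with limma 3.58.1, in R 4.3.3. Genes passing filterByExpr (minimum count 10, minimum total 15) were kept, scaled with TMM factors and fitted in 1 robust quasi-likelihood model of 4 group means. P values were adjusted over 11803 genes by the Benjamini-Hochberg method (threshold 0.05). Standard errors were derived from the F statistic. CPM values use TMM-scaled library sizes. The pipeline was tested on simulated data. Alternatives were DESeq2 1.42.0 (the tool the study used), other scalings and filters, only the groups compared, a replicate block, mitochondrial transcripts left out, and each library left out in turn. Replicates of a group differed by more than counting noise and were each kept.

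Every tested member is named, with values in all libraries where the mean of any group reached 20 CPM or a called change reached 2-fold. From each list at most 4 genes are named, those with the 2 highest and 2 lowest called changes with either drug against DMSO. Members and lists were chosen with earlier results of these data known. Positions and overlaps are from GENCODE 44 on GRCh38, matched by symbol.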

Additional observations from a re-analysis of the deposited data

Results flagged for a closer look

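For 8 host genes the change with abemaciclib differed between cells with and without fulvestrant, by a test of the difference itself (edgeR quasi-likelihood test of the interaction, adjusted over all genes tested). The difference, in log2 units, was 2.03 for SNHG9, 1.75 for SNHG30, 1.55 for SNHG12, 1.48 for SNHG19, 1.23 for SNHG25, 1.07 for SNHG17, 0.91 for SNHG15 and 0.56 for SNHG6. SNHG15 had not been called with abemaciclib alone, and the other 7 were lower with it. Groups of 3 libraries were too small to search for single outlying libraries.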

How the results depend on the processing

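Of 64 calls of a host gene in a comparison, 58 kept their call and direction under all alternatives that gave a value, and of 56 values not called, 49 stayed so. No call changed direction. Requiring at least 10 counts in every library left 14 hosts, of which 5 were lower with abemaciclib (median −0.17) and 5 had a positive interaction (median 0.22), and moved the median to −0.86 with fulvestrant and −0.59 for the combination against abemaciclib. With DESeq2 abemaciclib raised 1 host, and with upper-quartile factors the combination raised 2 against DMSO. Over all genes, adding abemaciclib to fulvestrant called 227, but 91 with at least 10 counts in every library and 125 with only the groups compared. Leaving out 1 library at a time, this count ran from 146 (without combination replicate 3) to 588 (without fulvestrant replicate 3), the hosts called lower from 0 to 1 and their median from −0.02 to 0.19. Abemaciclib raised 1 to 2 hosts with a median of −0.48 to −0.33, and the median with fulvestrant ran from −1.19 to −1.03. The combination raised 1 to 2 hosts against DMSO (median −1.04 to −0.92) and 0 to 1 against abemaciclib (median −0.54 to −0.43). The causes were not tested. Over 18 pairs of libraries with the same replicate number the deviations correlated from −0.215 to 0.119, 2 above 0.1. Deviations within groups of 3 libraries cannot show whether the numbers pair the samples, and the labels do not say. With a replicate block fulvestrant lowered 16 hosts (median −1.13), and the block changed no call of a host. Depth limits the scarce hosts most.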
